A study of Homo sapiens with 6 samples.

Results

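The 10 genes described here encode the secreted and membrane mucins *MUC1*, *MUC2*, *MUC4*, *MUC5AC*, *MUC5B*, *MUC6* and *MUC13* and the trefoil factors *TFF1*, *TFF2* and *TFF3*. They were chosen by symbol from the 60480 gene identifiers of the count table, and each symbol matched 1 identifier. Expression was measured by RNA-seq of poly(A) RNA in OE-19 cells, an established line from an adenocarcinoma of the esophagogastric junction (AEG). There were 3 libraries of the control knockdown (titled shControl, with columns named Puro, here control) and 3 libraries of the IGF2BP3 knockdown (titled shIGF2BP3, here IGF2BP3 KD). All 6 libraries are of the same line in the same medium, RPMI1640 with fetal bovine serum. The knockdown was made with shRNA, and the sources used here do not say whether 1 hairpin or several made the 3 libraries, or whether the libraries come from separate cultures. The p-values therefore measure the spread between these libraries, which may be technical. A culture of 1 cell line holds no gland, lumen or mucus layer, and levels of mRNA say nothing of secreted protein.

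Mucins are long proteins with repeats rich in serine and threonine that carry dense O-linked sugar chains. The gel-forming mucins *MUC2*, *MUC5AC*, *MUC5B* and *MUC6* are secreted and polymerise into mucus, whereas the membrane mucins *MUC1*, *MUC4* and *MUC13* stay anchored at the apical surface. Trefoil factors are small secreted proteins stored with mucins and known for their part in mucosal repair. In the stomach, surface cells make *MUC5AC* with *TFF1* and gland mucous cells make *MUC6* with *TFF2*, while intestinal goblet cells make *MUC2* with *TFF3*.

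In IGF2BP3 KD cells, 6 of the 9 tested members rose and 0 fell. The largest rises were those of the gastric gel-forming mucins *MUC6*, by 1.69-fold, and *MUC5AC*, by 1.51-fold, while *MUC5B*, *MUC13*, *TFF3* and *MUC1* rose by 1.24-fold or less. *MUC4*, *TFF1* and *TFF2* were not called, and *MUC2* was too low to be tested. In bulk RNA, more mRNA per cell and a larger share of cells with the mRNA cannot be told apart. Calls rest on edgeR's quasi-likelihood test over 19778 genes with Benjamini-Hochberg adjustment, at an adjusted p under 0.05. Of all tested genes 9.87% were called higher and 10.6% lower. The members and the gene lists below were chosen with earlier results of these data known. Their shares beside those of all genes are therefore a description and not a test. At an unadjusted p under 0.05 from the same test, 7 of the 9 members passed, against 6085 of the 19778 tested genes. Calls depend on the level: of the 9857 genes that averaged 10 CPM or more (CPM being counts scaled to a common library size), 16.5% were higher and 19.3% lower. The median log2 fold change was 0.27 over the 9 tested members and 0.01 over all tested genes.

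Total counts lay between 53424071 and 69989087 per library. *IGF2BP3* had 777, 792 and 794 counts in IGF2BP3 KD replicates 1 to 3, against 7416, 7363 and 6532 in the controls (log2 fold change -3.03 with a standard error of 0.06; edgeR adjusted p = 3.1e-10). The 8 markers of columnar epithelium summed to between 6556.7 and 6693.9 CPM in every library, a sum whose members moved both ways: *EPCAM* and *CLDN7* were called higher, by 11.3% and 9.41%, and *KRT8* and *KRT18* lower. Of 6 fibroblast markers, *COL1A2* and *LUM* were at 0 and only *COL1A1*, itself called higher, exceeded 1 CPM; the list summed to 21.2 to 24.5 CPM in control and 29.9 to 34.4 in IGF2BP3 KD libraries. Of 6 leukocyte markers, *CD3E* and *MS4A1* were at 0 and *PTPRC* was below 1 CPM, and the sum of 2505.9 to 2733.8 CPM in control and 2542.7 to 2615.5 in IGF2BP3 KD libraries came mostly from *LYZ*, which gastric epithelium also makes. *CD68* of that list was called higher. The part of these markers in the results was not tested. All 4 endothelial markers stayed below 1 CPM, with sums of 0 to 0.563 CPM in control and 0.161 to 0.371 CPM in IGF2BP3 KD libraries. The 6 squamous markers summed to 2.08 to 2.87 CPM in control and 4.09 to 4.96 in IGF2BP3 KD libraries, with *KRT4* called higher.

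The coding repeats of the mucins bear on how well their reads can be placed. Windows of 150 bases, the read length of the study, were taken from the longest transcript of each gene in GENCODE v44 (hg38). Each was compared with the others of its transcript and with transcripts of genes outside the members. Windows that occur more than once in the same transcript made up 12.4% of *MUC5B*, 10.7% of *MUC4*, 7.54% of *MUC2* and 5.16% of *MUC5AC*, and 0 windows of *MUC1*, *MUC6*, *MUC13* and the trefoil factors. No window of any member was found in a transcript of a gene outside the members. Windows shared between different members, such as the gel-forming mucins, were not examined. How reads from repeated windows were counted is not given in the sources used here, so the levels of *MUC5B*, *MUC4*, *MUC2* and *MUC5AC* are uncertain to that extent. Only identical windows were matched, so repeats that are similar but not identical were not examined in any member, *MUC1* and *MUC6* included. Repeats of any member that its annotated transcript does not hold were not examined either. The most frequent word of 24 bases is shown for the 4 genes with repeated windows, as the part of their sequence that limits counting, and for *MUC6*, whose rise was the largest, for contrast. Words are written 5′ to 3′ on the gene's own strand, with capitals nowhere since no base is singled out.
MUC2: ggtgaccccaaccccaacacccac
MUC4: cttcctgtcaccgacacttcctca
MUC5AC: ctcctacaaccagcacaacctctg
MUC5B: tcctccaccccagggaccacctgg
MUC6: tcaaggccacagggtccacccaca
The *MUC2* word occurs 43 times in the transcript, first in exon 30 of 49 at chr11:1095547-1095570. The *MUC4* word occurs 40 times, first in exon 2 of 25 at chr3:195788484-195788507 on the minus strand. The *MUC5AC* word occurs 16 times, first in exon 31 of 49 at chr11:1185245-1185268. The *MUC5B* word occurs 6 times, first in exon 31 of 49 at chr11:1244246-1244269, and the *MUC6* word 4 times, first in exon 31 of 33 at chr11:1018309-1018332 on the minus strand. Despite these copies, no window of 150 bases occurs more than once in the annotated *MUC6* transcript.

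**Figure D1:**
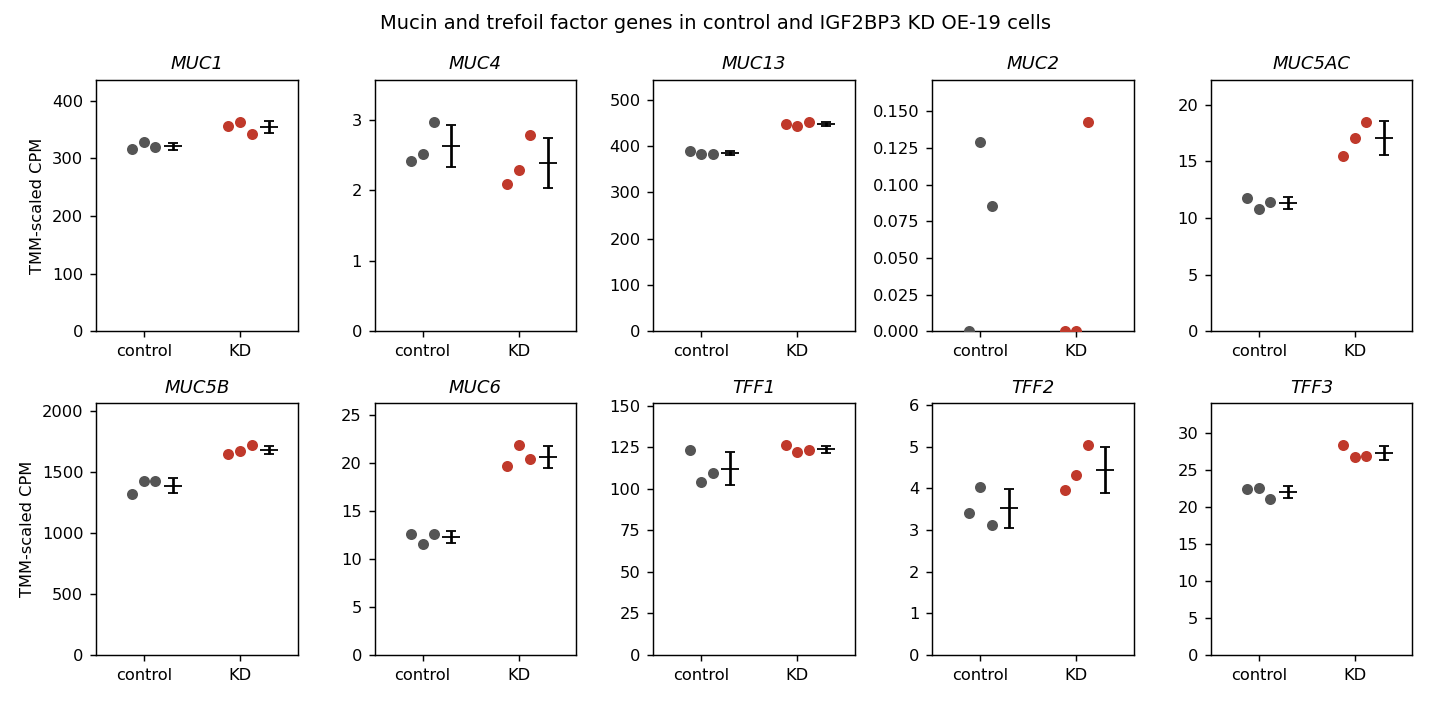
TMM-scaled CPM of the 10 genes in each library, with the mean and SD of 3 libraries beside the points (not drawn for *MUC2*, which had no counts in 3 of the 6 libraries). Each panel has its own axis from 0; the IGF2BP3 KD points lie above all control points for *MUC1*, *MUC13*, *MUC5AC*, *MUC5B*, *MUC6* and *TFF3*, and the groups overlap in the other panels.

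Levels differed by orders of magnitude between the members. CPM were divided by the kilobases of annotated exon, which adjusts for the length of each gene. *TFF1* was highest in control cells, at 228 ± 19.9 CPM per kb (SD, n = 3). The membrane mucins *MUC1* and *MUC13* followed at 134 ± 2.51 and 110 ± 1.13 CPM per kb, then *MUC5B* at 74.7 ± 3.27 and *TFF3* at 23.9 ± 0.896. The ranges of the 3 control libraries did not overlap between any of these neighbours. Ranges and SDs show the spread between libraries only, not errors from the annotated length or from reads in repeats. *TFF2* had 5.04 ± 0.667, *MUC6* 1.45 ± 0.0748, *MUC5AC* 0.649 ± 0.028 and *MUC4* 0.125 ± 0.0142 CPM per kb, again without overlap between neighbours. *MUC2* was last at 0.00565 ± 0.00519. The order was the same in IGF2BP3 KD cells, where *TFF1* had 252 ± 4.2 and *MUC5AC* 0.976 ± 0.0883 CPM per kb. OE-19 cells thus carried abundant mRNA of *TFF1*, *MUC1*, *MUC13* and *MUC5B*. They had low levels of the gastric mucins *MUC5AC* and *MUC6*, and almost none of the goblet cell mucin *MUC2*.

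**Figure D2:**
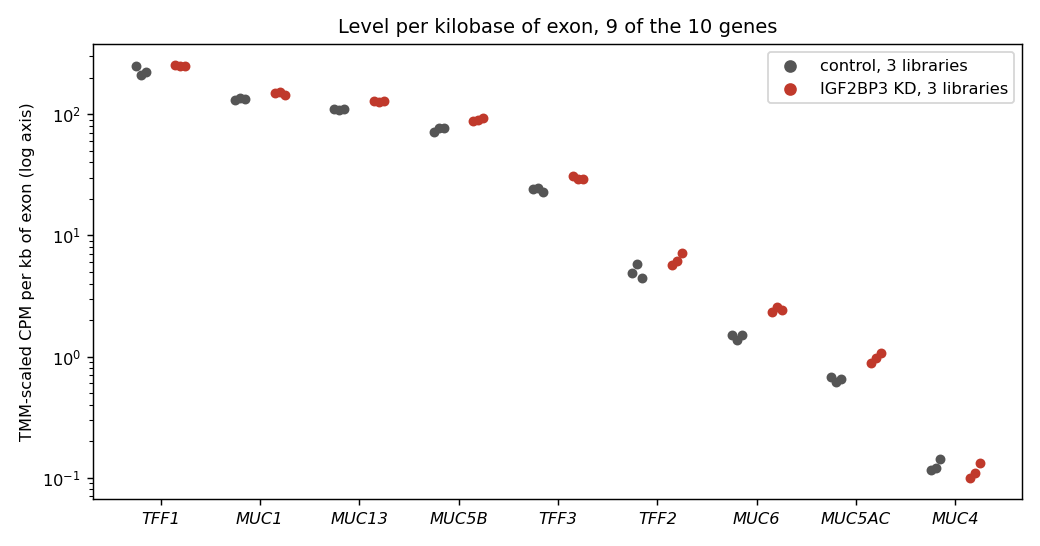
TMM-scaled CPM per kb of exon for 9 of the 10 genes, on a log axis, with a point for each library of control (grey) and IGF2BP3 KD (red) cells; *MUC2*, which had no counts in 3 libraries, is left out. The genes run from *TFF1* at 228 to *MUC4* at 0.125 CPM per kb in control cells.

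*MUC6* (ENSG00000184956), the mucin of gastric mucous neck and pyloric gland cells, lies on the minus strand at chr11:1012823-1036718. It had 12.6, 11.5 and 12.6 CPM in control replicates 1 to 3 and 19.6, 21.8 and 20.4 CPM in IGF2BP3 KD replicates 1 to 3. Every IGF2BP3 KD library was above every control library by more than the spread within either group. The log2 fold change was 0.75 (standard error 0.08, 95% interval 0.58 to 0.92), with the smallest p of the members (adjusted p = 5.1e-05 from edgeR's test). Of all tested genes, 4.42% had a log2 fold change at least as large. Among the genes that averaged 1 CPM or more, 14288 in all, *TIMP2*, *FNDC3B* and *EI24* had the profiles most like that of *MUC6* over the 6 libraries, with Pearson's r of 0.9982, 0.9976 and 0.9975 on log2 CPM. All 3 were themselves called higher, at log2 fold changes of 0.69, 0.27 and 0.32, and the 6 points of each r share the difference between the groups.

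*MUC5AC* (ENSG00000215182, chr11:1157953-1201138), the main mucin of the gastric surface, went from 11.8, 10.8 and 11.4 CPM in control replicates to 15.5, 17.1 and 18.5 CPM in IGF2BP3 KD replicates. The groups did not overlap, and the IGF2BP3 KD libraries were spread more widely than the controls (SD 1.54 against 0.488 CPM). The log2 fold change was 0.59 (standard error 0.09, 95% interval 0.39 to 0.79, adjusted p = 0.00073 from edgeR's test). Fits without single libraries gave 0.52 to 0.65.

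*MUC5B* (ENSG00000117983, chr11:1223066-1262172), a gel-forming mucin best known from airways and salivary glands, took most of the members' reads. It had 1318.3, 1423.3 and 1423.8 CPM in control replicates and 1650.3, 1667.8 and 1718.1 CPM in IGF2BP3 KD replicates. The lowest IGF2BP3 KD library was thus well above the highest control library, a log2 fold change of 0.27 (standard error 0.03, 95% interval 0.21 to 0.34, adjusted p = 7.9e-05 from edgeR's test). The gene made up 59.9% to 62.2% of the members' counts in control and 62.3% to 63.4% in IGF2BP3 KD libraries, and all 10 genes together made up 0.218% to 0.228% of all counts in control and 0.268% to 0.271% in IGF2BP3 KD libraries. *MUC5B* shares 434 exonic bases (2.33% of its exons) with *MUC5B-AS1* on the opposite strand, which is listed at 0 in every library.

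*MUC2* (ENSG00000198788, chr11:1074875-1110511), the goblet cell mucin that lies between *MUC6* and *MUC5AC*, was counted 0, 9 and 5 times in the control libraries, and 0, 0 and 9 times in those of IGF2BP3 KD cells. A count of 0 allows up to 3 counts, or 0.0429 to 0.0562 CPM depending on the library, a limit that covers counting error only. The libraries of each group ranged from 0 to 9 counts, and a difference was not detectable at this depth. Its repeat word shown above had the most copies of any member's.

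The gel-forming mucins were also compared with each other within each library, in ratios chosen after their values were seen. Per 100 counts of *MUC5B*, the control libraries held 0.954, 0.807 and 0.884 counts of *MUC6*, and the IGF2BP3 KD libraries 1.19, 1.31 and 1.19. This ratio, which does not depend on library scaling, was 1.39-fold higher in IGF2BP3 KD cells. For *MUC5AC* the values per 100 counts of *MUC5B* were 0.894, 0.759 and 0.797 in control and 0.936, 1.03 and 1.08 in IGF2BP3 KD replicates, 1.24-fold higher. In the last ratio, *TFF3* had 18.2, 21.7 and 19.3 counts per 100 counts of *TFF1* in control and 22.4, 21.9 and 21.8 in IGF2BP3 KD replicates, 1.12-fold higher. All 3 ratios separated the groups, yet the two-sided exact permutation test gave p = 0.1 for each, the smallest p that 3 against 3 libraries allow, also after Benjamini-Hochberg adjustment over the 3 ratios.

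*MUC6*, *MUC2*, *MUC5AC* and *MUC5B* are neighbours on chromosome 11, a position that the choice of genes by symbol did not use. The coding genes in the 250 kb on either side, chosen after values were seen, were read from the same fit. Of 17 tested neighbours 4 were higher and 1 lower. The shares over all tested genes were 9.87% higher and 10.6% lower, and 16.5% and 19.3% among those averaging 10 CPM or more. The nearest ones, *AP2A2* beside *MUC6* and *TOLLIP* beside *MUC5B*, were not called, with log2 fold changes of 0.00 (95% interval -0.10 to 0.11) and 0.12 (95% interval 0.01 to 0.24). The intervals of *MUC6* and *MUC5AC* lay above both, whereas that of *MUC5B* overlapped that of *TOLLIP*, and no difference between these genes was tested. Among the neighbours called higher, *SLC25A22* reached 0.51, with an interval of 0.35 to 0.67 that overlaps those of *MUC6* and *MUC5AC*, and *RPLP2*, a ribosomal protein gene, 0.38. The trefoil genes *TFF3*, *TFF2* and *TFF1* are neighbours on chromosome 21, where 0 of 5 tested neighbours were higher and 1 was lower. That gene was *TMPRSS3*, a serine protease gene next to *TFF1*, at -0.45 on the log2 scale (standard error 0.13, edgeR adjusted p = 0.035).

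**Figure D3:**
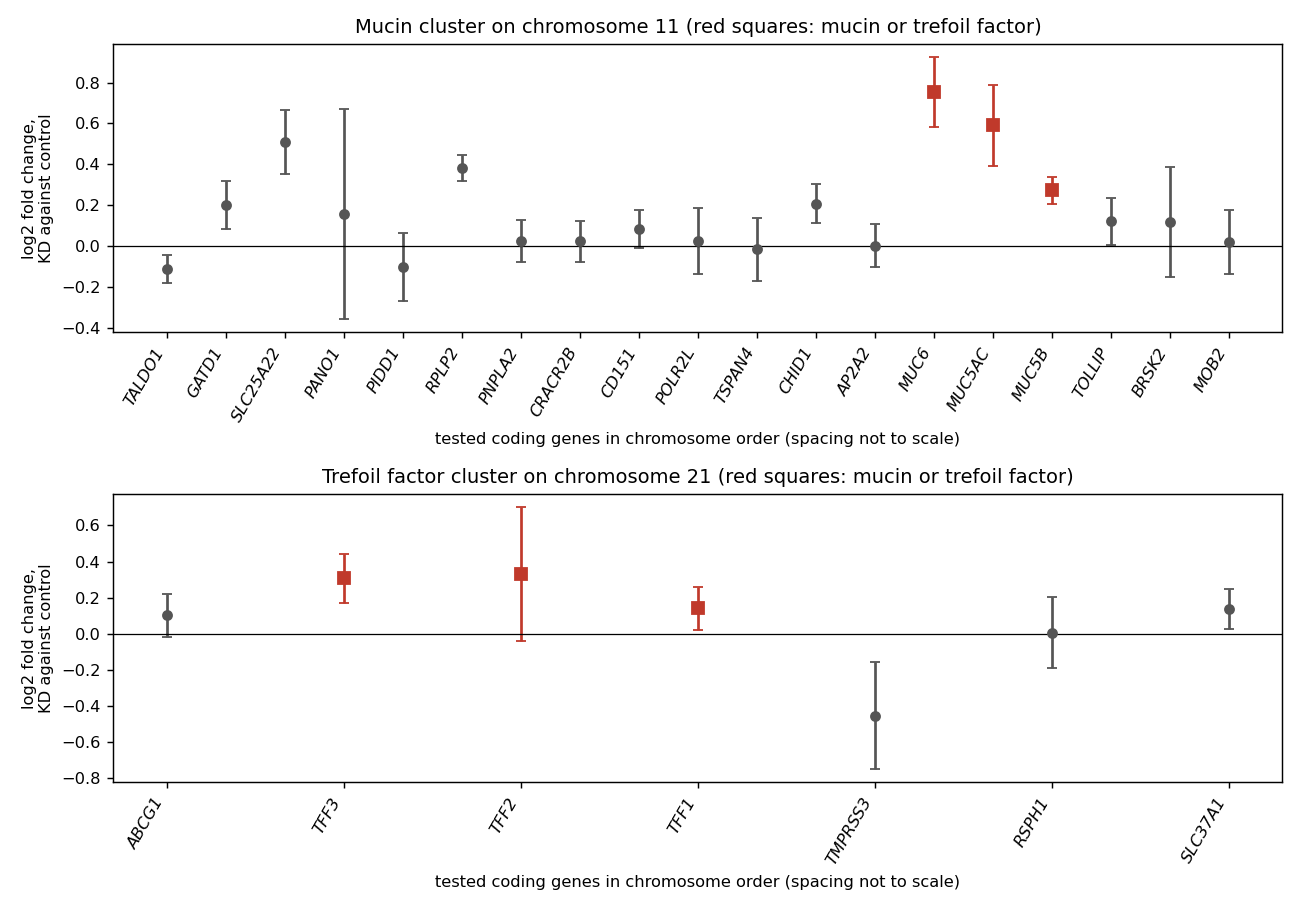
Log2 fold change of IGF2BP3 KD against control with its 95% interval for tested coding genes averaging 1 CPM or more in and within 250 kb of the mucin cluster (top) and the trefoil factor cluster (bottom), in chromosome order with spacing not to scale. *MUC6* at 0.75 and *MUC5AC* at 0.59 lie above all neighbours' points, while *AP2A2* and *TOLLIP* on either side of the cluster lie at 0.00 and 0.12.

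Of the membrane mucins, *MUC13* (ENSG00000173702, minus strand, chr3:124905442-124953819), which is typical of gastrointestinal epithelium, had the tightest replicates. It had 389.5, 382.1 and 383.6 CPM in control and 448.5, 443.0 and 452.9 CPM in IGF2BP3 KD replicates. The gap between the groups was many times the spread within them, at a log2 fold change of 0.22 (standard error 0.02, 95% interval 0.17 to 0.27, adjusted p = 7.8e-05 from edgeR's test).

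*MUC1* (ENSG00000185499, minus strand, chr1:155185824-155192916), the broadly expressed membrane mucin, rose less, from 316.0, 327.8 and 319.5 CPM in control to 356.2, 363.8 and 342.8 CPM in IGF2BP3 KD replicates. The groups did not overlap, and the log2 fold change of 0.14 (standard error 0.03, 95% interval 0.08 to 0.21, adjusted p = 0.0058 from edgeR's test) is a rise of 10.3%. *MUC1* shares 48 exonic bases, 2% of its exons, with another gene on its strand.

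*MUC4* (ENSG00000145113, minus strand, chr3:195746765-195811973), a large membrane mucin known to bind ERBB2, was low. It had 2.41, 2.51 and 2.97 CPM in control and 2.08, 2.29 and 2.78 CPM in IGF2BP3 KD replicates, and the groups overlapped. The log2 fold change was -0.14 with a 95% interval from -0.58 to 0.29 (adjusted p = 0.69 from edgeR's test), so a rise as large as that of *MUC5B* lies inside this interval and one as large as that of *MUC6* does not.

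**Figure D4:**
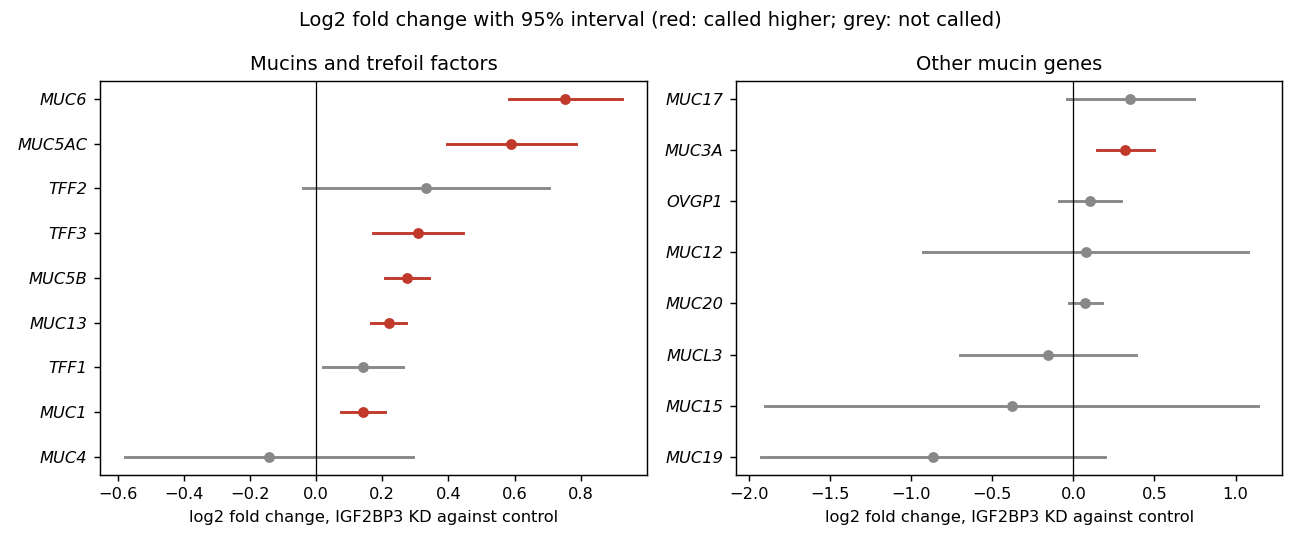
Log2 fold change of IGF2BP3 KD against control (point) with its 95% interval (line) for the 9 tested members (left) and 8 tested further mucin genes (right), in red where called higher and in grey where not called. The axes differ; *MUC6* and *MUC5AC* lie farthest to the right among the members, and only *MUC4* among the members has its point below 0.

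*TFF3* (ENSG00000160180, minus strand, chr21:42311667-42315409), the trefoil factor of goblet cells, was the 1 trefoil gene that was called. It had 22.4, 22.6 and 21.1 CPM in control and 28.3, 26.7 and 26.8 CPM in IGF2BP3 KD replicates, without overlap. The log2 fold change was 0.31 (standard error 0.06, 95% interval 0.17 to 0.44, adjusted p = 0.0044 from edgeR's test).

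*TFF1* (ENSG00000160182, minus strand, chr21:42362282-42366535), the trefoil factor of gastric surface cells, had 123.1, 104.1 and 109.5 CPM in control and 126.2, 122.3 and 123.1 CPM in IGF2BP3 KD replicates. Control replicate 1 lay within the range of the IGF2BP3 KD libraries. The log2 fold change was 0.14 (standard error 0.05, 95% interval 0.02 to 0.26), which did not pass over all genes (adjusted p = 0.096 from edgeR's test). The call turned on the method: the adjusted p was 0.047 with DESeq2, 0.041 with the replicate number as a block and, without control replicate 1, 0.0029 at a log2 fold change of 0.21, while the other 9 alternatives left it uncalled (largest adjusted p 0.34).

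*TFF2* (ENSG00000160181, minus strand, chr21:42346357-42350997), the trefoil factor of mucous neck cells, had 3.4, 4.03 and 3.12 CPM in control and 3.95, 4.32 and 5.03 CPM in IGF2BP3 KD replicates. The groups overlapped in 1 library of each. The log2 fold change of 0.33 was similar to that of *TFF3*, but its standard error of 0.17 was larger and the 95% interval ran from -0.04 to 0.70 (adjusted p = 0.21 from edgeR's test).

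The 6 called members were called in each of the 12 alternative fits, with a largest adjusted p of 0.039 for *MUC1* from edgeR's test without IGF2BP3 KD replicate 2. Without overlap between the groups were the same 6 members, against 35.8% of all tested genes in either direction and 18% with IGF2BP3 KD above control.

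Further mucin genes were read from a list of 13, of which 8 were expressed enough to be tested. Of these 12.5% were higher and 0% lower, against 9.87% and 10.6% of all tested genes. Only *MUC3A*, an intestinal membrane mucin, was called, at 0.32 on the log2 scale (standard error 0.08, edgeR adjusted p = 0.015), but 3 of the 6 fits with a library left out did not call it: without control replicate 1 (adjusted p = 0.058), IGF2BP3 KD replicate 2 (0.081) or IGF2BP3 KD replicate 3 (0.059). It went from 17.6 ± 1.2 to 21.9 ± 1.63 CPM (SD, n = 3) and shares 6.48% of its exonic bases with a gene on the opposite strand. Its genomic neighbour *MUC17*, also a membrane mucin, had a log2 fold change of 0.35 with a standard error of 0.18 and was not called. *MUC20*, with the most counts of the list, was at 0.07 on the log2 scale (standard error 0.05), was not called and shares 27.1% of its exonic bases with *MUC20-OT1* on its strand. The median log2 fold change of the 8 genes was 0.07.

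Mucin polypeptides are decorated in the Golgi, where GALNT enzymes add the first sugar and others extend, branch or cap the chain. Of 38 genes of mucin-type O-glycosylation 31 were tested, and 11 (35.5%) were higher and 1 (3.23%) lower, with a median log2 fold change of 0.17. All tested genes gave 9.87% higher and 10.6% lower, and those averaging 10 CPM or more 16.5% and 19.3%. Among the called genes averaging 1 CPM or more, the largest rise was that of *GALNT7*, which prefers substrates that already carry a sugar, with 83.1 ± 5.15 CPM in control and 116.7 ± 3 CPM in IGF2BP3 KD libraries (SD, n = 3), or 0.49 on the log2 scale. *C1GALT1C1*, the chaperone that the core 1 enzyme needs, had a log2 fold change of 0.47, whereas *C1GALT1*, the core 1 enzyme itself, had -0.01 and was not called. *GCNT1*, which makes the core 2 branch, had 0.39, *B4GALNT3* 0.34 and *GALNT11* 0.31. The others called higher were *GALNT2*, *GALNT6*, *GALNT12*, *GALNT13*, *B3GNT3* and *FUT2*, the last being the secretor enzyme. The call of *FUT2* was lost without control replicate 2 (edgeR adjusted p = 0.062), IGF2BP3 KD replicate 1 (0.059) or IGF2BP3 KD replicate 2 (0.053). *GALNT13*, at 0.574 ± 0.106 CPM in control and 1.22 ± 0.231 CPM (SD, n = 3) in IGF2BP3 KD libraries, lost its call without the low-count filter (edgeR adjusted p = 0.064) and without control replicate 2 or 3 or IGF2BP3 KD replicate 1 or 2 (0.063 to 0.094). *GALNT2* and *GALNT12* share 13.3% and 20.9% of their exonic bases with genes on the opposite strand. *ST3GAL1*, which caps core 1 with sialic acid, was the 1 gene that fell, with a log2 fold change of -0.12. Leaving out single libraries gave 9 to 14 higher genes in the list, and 2 lower ones without control replicate 1.

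**Figure D5:**
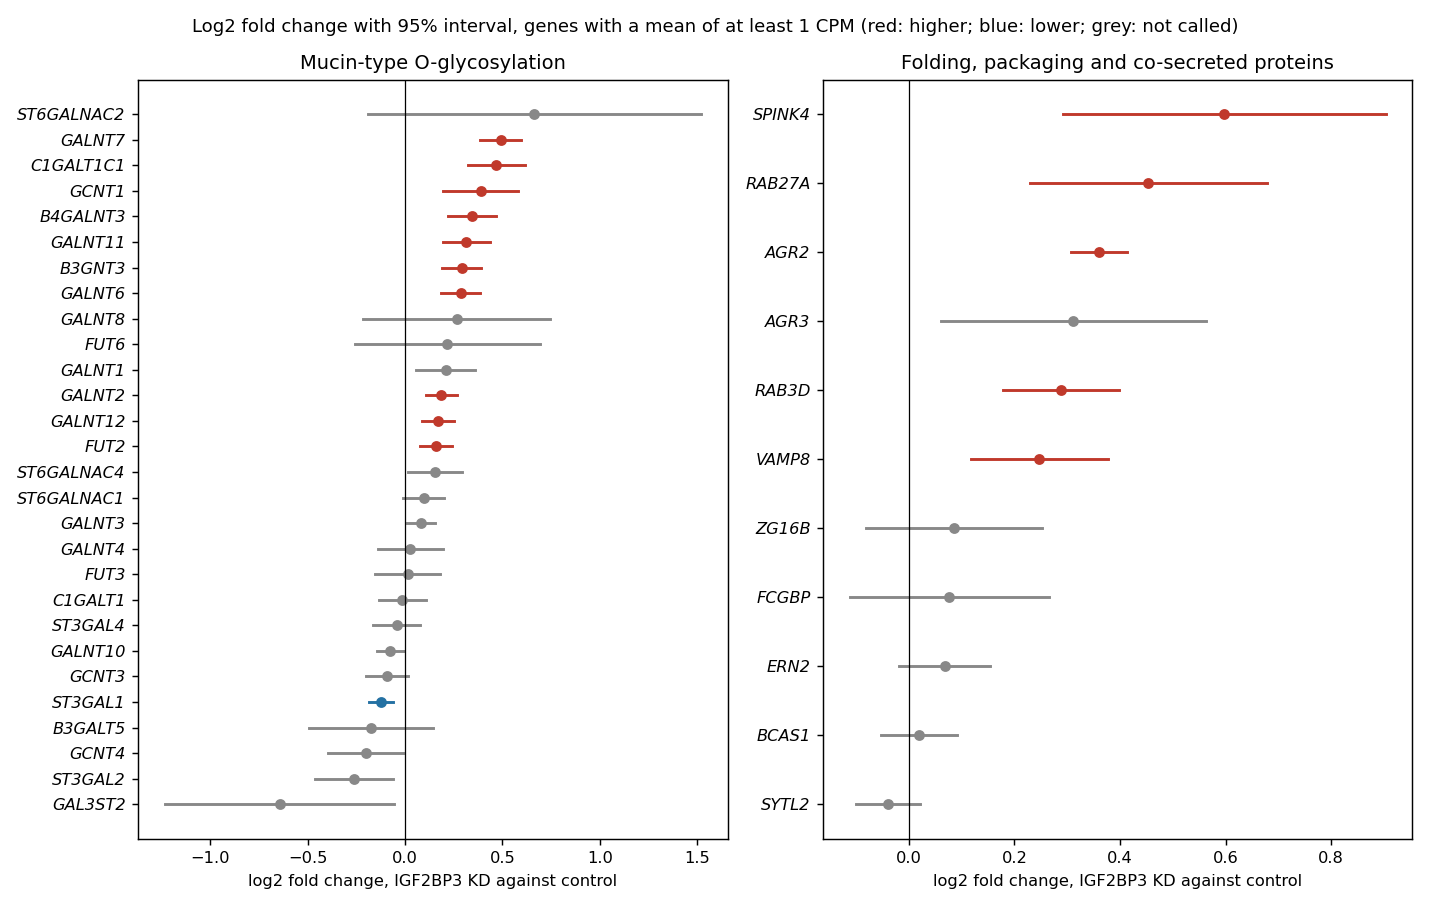
Log2 fold change of IGF2BP3 KD against control (point) with its 95% interval (line) for tested genes averaging 1 CPM or more in the lists of mucin-type O-glycosylation (left) and of folding, packaging and co-secreted proteins (right), in red where higher, blue where lower and grey where not called. *GALNT7* at 0.49 and *SPINK4* at 0.60 lead the called genes of their panels, and *ST3GAL1* at -0.12 is the only blue point.

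The list of proteins that fold and package mucins or are secreted with them had 19 genes, of which 12 were tested. Of the tested genes 5 (41.7%) were higher and 0 lower, against 9.87% and 10.6% of all tested genes. Among all genes averaging 10 CPM or more, the shares were 16.5% and 19.3%. *AGR2*, the disulfide isomerase of the endoplasmic reticulum needed for mucin folding, had the most counts of the list, with 1891.0 ± 47 CPM in control libraries (SD, n = 3) against 2427.4 ± 55.6 CPM after knockdown. The rise was 0.36 on the log2 scale (standard error 0.02), at an edgeR adjusted p of 1.9e-06. *SPINK4*, a goblet cell peptide, had the largest value, 0.60 (standard error 0.14), at 4.27 ± 0.494 CPM in control and 6.47 ± 0.255 CPM in IGF2BP3 KD cells. *RAB27A* and *RAB3D*, small GTPases of secretory granules, had 0.45 and 0.29 (*RAB3D* shares 28.4% of its exonic bases with other genes), and *VAMP8*, a SNARE protein of granule fusion, 0.25. The call of *VAMP8* was lost without control replicate 2 (adjusted p = 0.054) and without IGF2BP3 KD replicate 2 (0.051). *FCGBP*, the mucus protein that binds trefoil factors, was not called, at 0.08. The gastrokine genes *GKN1* and *GKN2* and the goblet cell genes *CLCA1* and *ZG16* had too few counts to be tested.

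Of 20 transcription factors of mucous and gastrointestinal lineages 17 were tested, and 2 (11.8%) were higher and 2 (11.8%) lower. These shares are close to the 9.87% and 10.6% of all tested genes, and below the 16.5% and 19.3% of those averaging 10 CPM or more. *CREB3L1*, a membrane-bound factor of the secretory pathway, changed most, with 62.7 ± 2.45 CPM in control and 148.7 ± 4.3 CPM in IGF2BP3 KD libraries (SD, n = 3). This was 1.25 on the log2 scale (standard error 0.04), at an edgeR adjusted p of 1.1e-08. *CDX2*, the intestinal homeobox factor, rose by 0.50 on the log2 scale, with means of 12.6 ± 1.38 and 17.7 ± 0.578 CPM. The genes that fell were *FOXA1*, at -0.25, and *SPDEF*, a factor of goblet and other mucous cells, at -0.17. Both calls were fragile: that of *FOXA1* was lost without control replicate 2 (adjusted p = 0.052), IGF2BP3 KD replicate 1 (0.059) or IGF2BP3 KD replicate 2 (0.058). That of *SPDEF* was lost in 4 of the 6 fits without a library (without control replicate 2 or 3, or IGF2BP3 KD replicate 2 or 3, adjusted p up to 0.16), without TMM scaling (0.064) and without the low-count filter (0.072). *GATA4*, *GATA6*, *HNF4A*, *SOX2* and *KLF4* were not called, and *ATOH1* and *CDX1* had too few counts to be tested.

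Among 10 genes for partners of membrane mucins and for trefoil receptors 8 were tested, of which 3 (37.5%) were higher and 2 (25%) lower. Over all tested genes the shares were 9.87% and 10.6%, and 16.5% and 19.3% for those averaging 10 CPM or more. *ERBB3*, a receptor that pairs with ERBB2, fell to 143.0 ± 2.22 CPM, against 393.5 ± 3.69 in control libraries (SD, n = 3), which is -1.46 on the log2 scale. *EGFR* rose with a log2 fold change of 0.73, *GRB2* with 0.24 and *ERBB2* with 0.13, and *SRC* fell, at -0.22. *CXCR4*, reported as a receptor for trefoil factors, had 0.10 and was not called.

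The words GATTACT and ACACATC were taken from an earlier analysis of these libraries, which found them by their link with the changes, so the shares that follow are a description. Of the genes whose 3′ UTR holds ACACATC 28% were higher and 10.7% lower, and of those with GATTACT 6.72% were higher and 35.1% lower, against 13.1% and 14.5% of all genes searched. Both words were searched on the transcript's strand of the Ensembl canonical transcripts of GENCODE v44. ACACATC is in the 3′ UTR of 9.65% and GATTACT in that of 7.79% of the 13753 tested genes with a 3′ UTR of at least 50 bases. Neither word occurs in the 3′ UTR of any of the 9 tested members, which are 176 to 1301 bases long, nor in those of the tested genes among the further mucins. Of the 11 O-glycosylation genes that were higher, 6 hold ACACATC (*GALNT6*, *GALNT7*, *GCNT1*, *B3GNT3*, *FUT2* and *B4GALNT3*), against 1 of the 19 not called. In the other lists, ACACATC is held by *CREB3L1* and *EGFR*, which were higher, and by *GFI1* and *GATA6*, which were not called. GATTACT is held by *ERBB3*, at 2 places, which was lower, and by *GALNT5*, *C1GALT1*, *ST3GAL2* and *REP15*, which were not called. The sites of *ERBB3*, *EGFR*, *CREB3L1* and the 3 O-glycosylation genes with the largest changes among these are shown with 8 bases on either side, 5′ to 3′ on the transcript's strand, with the word in capitals.
GALNT7: cgttataaACACATCaaaggttc
GCNT1: atgctgtcACACATCtcaaagta
B4GALNT3: ccagagacACACATCtcccagta
CREB3L1: ccaaacagACACATCaacgcacc
EGFR: agaggatgACACATCaaataata
ERBB3, first site: atatgaagGATTACTctccatat
ERBB3, second site: tagatattGATTACTatcataat
On hg38 these stretches lie in the last exon of each gene, on the plus strand, at chr4:173322675-173322697 (*GALNT7*), chr9:76505003-76505025 (*GCNT1*), chr12:562041-562063 (*B4GALNT3*), chr11:46321052-46321074 (*CREB3L1*), chr7:55206423-55206445 (*EGFR*) and, for *ERBB3*, chr12:56102340-56102362 and chr12:56102544-56102566. A match describes the sequence only, and any part of these words in the changes was not tested.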

How the data were processed

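RNA-seq libraries of OE-19 cells (3 control, 3 IGF2BP3 KD) were made from poly(A) RNA with the NEBNext Ultra Directional kit and sequenced as paired reads of 150 bases. The authors used hisat2 in its default setting for mapping to hg38 and deposited raw counts per gene from featureCounts; fastp is named in the submitters' processing notes. Versions, annotation release and strand setting are not given in the sources used here, so counts of overlapping genes are uncertain. Of 60612 rows, 132 that repeat an identifier were left out.

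Counts were tested with edgeR 4.0.16 (R 4.3.3): filterByExpr (minimum count 10, minimum total 15), TMM scaling, and glmQLFTest without a block, with Benjamini-Hochberg adjustment over 19778 genes and a threshold of 0.05. CPM are TMM-scaled. Standard errors are the log2 fold change divided by the square root of F. The fit was tested on simulated data drawn with its own dispersions. That checks the code, not whether the real libraries follow the model. The square root of the common dispersion was 0.148. Alternatives were DESeq2 1.42.0, other scalings and filters, a replicate block and each library left out. Positions, exon lengths, overlaps and sequences come from GENCODE v44 (hg38), which held 99.97% of the tested genes. Figures used matplotlib 3.10.9.

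The members and lists were chosen with earlier results of these data known. The text names all members, *IGF2BP3*, per list at most 5 called genes averaging 1 CPM or more, by size of change, and the 3 genes most like the member with the smallest p (log2 of CPM plus 0.1). Neighbouring genes, words in 3′ UTRs and further list genes were chosen after values were seen.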

Additional observations from a re-analysis of the deposited data

How the results depend on the processing

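The 6 called members kept their call and direction in all 12 alternatives, and with each library left out 6 to 7 members were higher and 0 lower. Without a library, 1414 to 1741 genes were higher and 1641 to 1970 lower over all genes tested, against 1953 and 2088. In the 5 gene lists together, 18 to 26 genes were higher, and between 3 and 6 lower against 5, the 3 arising when control replicate 2 was left out, and likewise IGF2BP3 KD replicate 2. The further mucins then gave 0 to 1 higher genes, O-glycosylation 1 to 2 lower genes and the transcription factors 0 to 2 lower genes. Of the transcription factors, 4 were higher without TMM scaling or with at least 10 counts in every library, and 1 was lower without TMM scaling or without the low-count filter; the cause was not tested. *TFF1* was called with DESeq2 at a log2 fold change of 0.13, and ranged from 0.087 to 0.21 without a library. Per kilobase of the longest transcript instead of all exons, control levels were 177 for *MUC1*, 0.157 for *MUC4*, 134 for *MUC13*, 1.52 for *MUC6* and 25.4 CPM per kb for *TFF3*, with the same order. With the replicate number as a block, 1875 genes were higher and 2026 lower, and *TFF1* was called at a log2 fold change of 0.15 (adjusted p = 0.041, edgeR). Deviations of same-numbered libraries correlated between -0.0315 and 0.00915, so no effect shared by replicate number was visible. Whether same-numbered libraries were prepared together cannot be read from these values. With 3 libraries per group, *MUC4* and *TFF2* had intervals wide enough to hold changes of the size seen in *MUC5B*.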
